A study of Mus musculus with 18 samples.

Results

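A set of 10 antiviral genes that interferons are known to switch on was followed in sorted mouse islet cells: 4 genes of the IFIT family (*Ifit1*, *Ifit2*, *Ifit3* and *Ifit3b*), *Rsad2*, which encodes viperin, *Rtp4*, *Bst2*, which encodes tetherin, *Samhd1*, *Mx1* and *Mx2*. The genes were chosen by symbol, and all 10 of them were found among the 55487 genes listed for each library. *Ifit3* and *Ifit3b* are near-identical copies whose reads cannot be split with confidence, so their counts were added, which left 9 units for the tests. RNA had been measured in 18 libraries, 3 for each of 6 groups: alpha control, alpha IFNγ, beta control, beta IFNγ, delta control and delta IFNγ. All the islets came from C57BL/6 mice, which per the study's methods were males of the C57BL/6JRj strain aged 12 weeks. Whole islets were kept for 20 h with 5 ng/mL of interferon gamma (IFNγ), the type II interferon that activated lymphocytes release, or without it, and were dispersed and sorted only afterwards. The cells therefore met IFNγ beside every other cell of the islet, and a change in one cell type can include what the other islet cells released during that time. The sort kept Epcam-positive cells that lacked CD45, TER119 and CD31, and among them high CD24 marked delta cells, while CD24-low cells with CD71 were beta cells and those without it alpha cells. No allele or transgene distinguished the groups. By the study's account the samples are biologically independent, while the labels tie no library to an animal or a pool, so the p-values measure the spread between libraries.

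IFNγ binds its receptor (IFNGR1 and IFNGR2), which works through the kinases JAK1 and JAK2 and leads to binding at GAS elements, with letters near TTCNNNGAA. Type I interferons use another receptor (IFNAR1 and IFNAR2) and a complex with STAT2 and IRF9 that binds the interferon-stimulated response element (ISRE), where members of the IRF family such as IRF1 also bind, with letters near GAAANNGAA. The effectors followed here act after a virus has entered or as it leaves. IFIT proteins hold viral RNAs that lack the cap marks of the host's own messages, viperin makes a nucleotide that ends the growing chain of viral RNA polymerases, SAMHD1 breaks down the nucleotides that reverse transcription needs, MX proteins are dynamin-like GTPases that trap viral nucleocapsids, and tetherin ties budding virions to the cell surface. RTP4 is an RNA-binding protein that restrains flaviviruses and also helps taste and opioid receptors to reach the membrane. Viral infection of islets, enteroviruses above all, has long been studied in relation to type 1 diabetes, and beta cells with an interferon signature are a known feature of islets in that disease.

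In the GENCODE M21 annotation of GRCm38, 4 of the genes lie near one another on the plus strand of chromosome 19, over 99.32 kilobases from *Ifit2* to *Ifit1*: *Ifit2* at chr19:34550694-34576419, *Ifit3* at chr19:34583531-34588731, *Ifit3b* at chr19:34607970-34613401 and *Ifit1* at chr19:34640871-34650009. On the minus strand, RefSeq starts of the relative *Ifit1bl1* lie between *Ifit3* and *Ifit3b*, and those of *Ifit1bl2* between *Ifit3b* and *Ifit1*. *Mx1* (chr16:97447035-97462907, minus strand) and *Mx2* (chr16:97535308-97560900, plus strand) are neighbours on chromosome 16. *Rtp4* (chr16:23520291-23614222, plus strand) lies far from them on the same chromosome. The other genes are *Rsad2* at chr12:26442746-26456452 (minus strand), *Bst2* at chr8:71534255-71537456 (minus strand) and *Samhd1* at chr2:157097533-157135265 (minus strand). GENCODE lists 9 of the 10 genes as protein coding and *Mx2* as a polymorphic pseudogene, while RefSeq lists both *Mx1* and *Mx2* as transcribed pseudogenes in this assembly, which is that of the C57BL/6J strain. Most laboratory strains carry *Mx* alleles that make no working protein, so an *Mx* level in these cells is a level of RNA only. *Ifit3* and *Ifit3b* have transcripts of 1745 and 2000 bases that align over 1700 columns with 97.8% of letters identical, and 41.1% of the 75-base windows of the *Ifit3* transcript occur letter for letter in that of *Ifit3b*. No 75-base window was shared between *Ifit1*, *Ifit2* and *Ifit3*, whose reads of that length can be told apart.

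RefSeq promoter windows (GRCm38.p6, 250 bases before to 50 after a gene's start) were given for 7 of the 10 genes, and Rtp4, Mx1 and Mx2 had none. The stretch from base -200 to base -61 before the start is printed below, 5′ to 3′ on the gene's own strand, for the 5 genes whose windows hold the ISRE core GAAANNGAA, with each match in capitals. The core was searched on both strands. *Ifit1* held 3 matches, the first pair overlapping, *Ifit3* and *Ifit3b* held 3 each, *Bst2* held 2 that overlap, and *Rsad2* held 1. The windows are shown because these are the letters that the complexes named above are known to read, and because they show how alike the pair of *Ifit3* copies is.
Ifit1, chr19:34640689-34640828, plus strand: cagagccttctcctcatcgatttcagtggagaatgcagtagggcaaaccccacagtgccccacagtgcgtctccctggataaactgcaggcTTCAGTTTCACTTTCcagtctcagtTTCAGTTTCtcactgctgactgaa
Ifit3, chr19:34583329-34583468, plus strand: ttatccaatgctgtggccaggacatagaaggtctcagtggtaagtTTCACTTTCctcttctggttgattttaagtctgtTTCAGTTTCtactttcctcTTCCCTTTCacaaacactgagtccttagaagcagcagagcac
Ifit3b, chr19:34607757-34607896, plus strand: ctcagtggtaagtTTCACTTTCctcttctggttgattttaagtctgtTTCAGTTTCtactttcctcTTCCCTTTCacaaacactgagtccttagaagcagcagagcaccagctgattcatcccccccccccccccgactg
Bst2, chr8:71537533-71537672, minus strand: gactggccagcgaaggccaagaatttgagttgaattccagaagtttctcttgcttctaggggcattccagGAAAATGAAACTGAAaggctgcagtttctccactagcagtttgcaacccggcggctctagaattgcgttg
Rsad2, chr12:26456513-26456652, minus strand: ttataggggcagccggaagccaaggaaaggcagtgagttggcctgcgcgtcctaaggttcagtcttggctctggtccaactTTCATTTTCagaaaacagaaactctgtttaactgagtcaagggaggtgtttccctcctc

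*Ifit3* and *Ifit3b* shared a stretch of 169 bases letter for letter, from base -218 of *Ifit3* and base -250 of *Ifit3b*, and the 3 matches of each fall in it in the same order and spacing. *Ifit1* and its relative *Ifit1bl2* start 146 bases apart and run in opposite directions, so the 3 matches before *Ifit1* also lie before *Ifit1bl2*. The GAS core TTCNNNGAA was found once each in the windows of *Bst2* (bases -136 to -128, overlapping an ISRE match), *Samhd1* (-235 to -227) and *Ifit2* (-241 to -233). *Samhd1* and both windows of *Ifit2* held no ISRE core, which says only that these letters are not in 300 bases around the listed starts. Of all 32817 windows in the table, 8.55% held the ISRE core, 0.619% held it at least 2 times, and 8.29% held the GAS core.

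Library totals lay between 6128845 and 11531734 expected counts, and levels are given per library as CPM, counts per TMM-scaled library total, which suit comparisons of 1 gene between libraries. The labelled cell types matched their hormones: *Gcg* lay between 74630 and 117400 CPM in the alpha libraries and at 2977 CPM or less elsewhere, *Ins2* between 17520 and 30180 CPM in the beta libraries and at 6502 CPM or less elsewhere, and *Sst* between 9561 and 35920 CPM in the delta libraries and at 74.13 CPM or less elsewhere. The alpha IFNγ 2 library stood apart from its group. Without it the genes called in alpha cells rose from 162 to 1797 in the higher direction and from 6 to 1959 in the lower, so values without it are given beside the alpha results. The summed level of 11 immune cell markers was 1.496 to 4.13 CPM in the control libraries and 0.95 to 5.15 CPM in the IFNγ libraries, with *Cd3e* at 0 in all 18 libraries, *Adgre1* at 0 in 17 and *Ptprc* (CD45) at 0 in 15. Acinar cell markers (8 genes) summed to 486.9 to 2452 CPM in the delta libraries, to 1817 CPM in beta control 1 and to 157.4 CPM or less in the other libraries, and are set beside the delta results below. Duct cell markers (5 genes) summed to 636.7 to 1311 CPM in the alpha libraries and to 245.7 CPM or less in the other libraries. In sorted bulk samples, fewer cells that express a gene and less of its RNA per cell cannot be told apart.

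IFNγ raised most of these genes in all 3 cell types. Of the 9 units, 7 rose in alpha cells, 8 in beta cells and 8 in delta cells, and none fell, by the edgeR quasi-likelihood test at an adjusted p under 0.05. Over all 17337 genes tested, the share called higher was 0.934% in alpha cells, 1.05% in beta cells and 1.20% in delta cells. The median log2 fold change of the 9 units was 2.97 in alpha cells, 3.60 in beta cells and 3.37 in delta cells, beside medians over all genes of -0.013, 0 and -0.046. In CPM, no control library overlapped an IFNγ library of its cell type for any unit. That is a description only, as the share of all genes that separate in this way was not counted. *Ifit2* had the largest log2 fold change in beta and delta cells, while in alpha cells *Ifit2*, the *Ifit3* pair and *Rtp4* lay within their standard errors of one another. The 10 genes were also summed in TPM (a share of all transcripts, scaled for gene length). The sum went from 21.12 ± 5.19 (SD, n = 3) to 108.1 ± 25.1 in alpha cells, from 13.27 ± 1.45 to 158.3 ± 11.7 in beta cells and from 25.99 ± 4.02 to 180 ± 66.3 in delta cells.

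**Figure D1:**
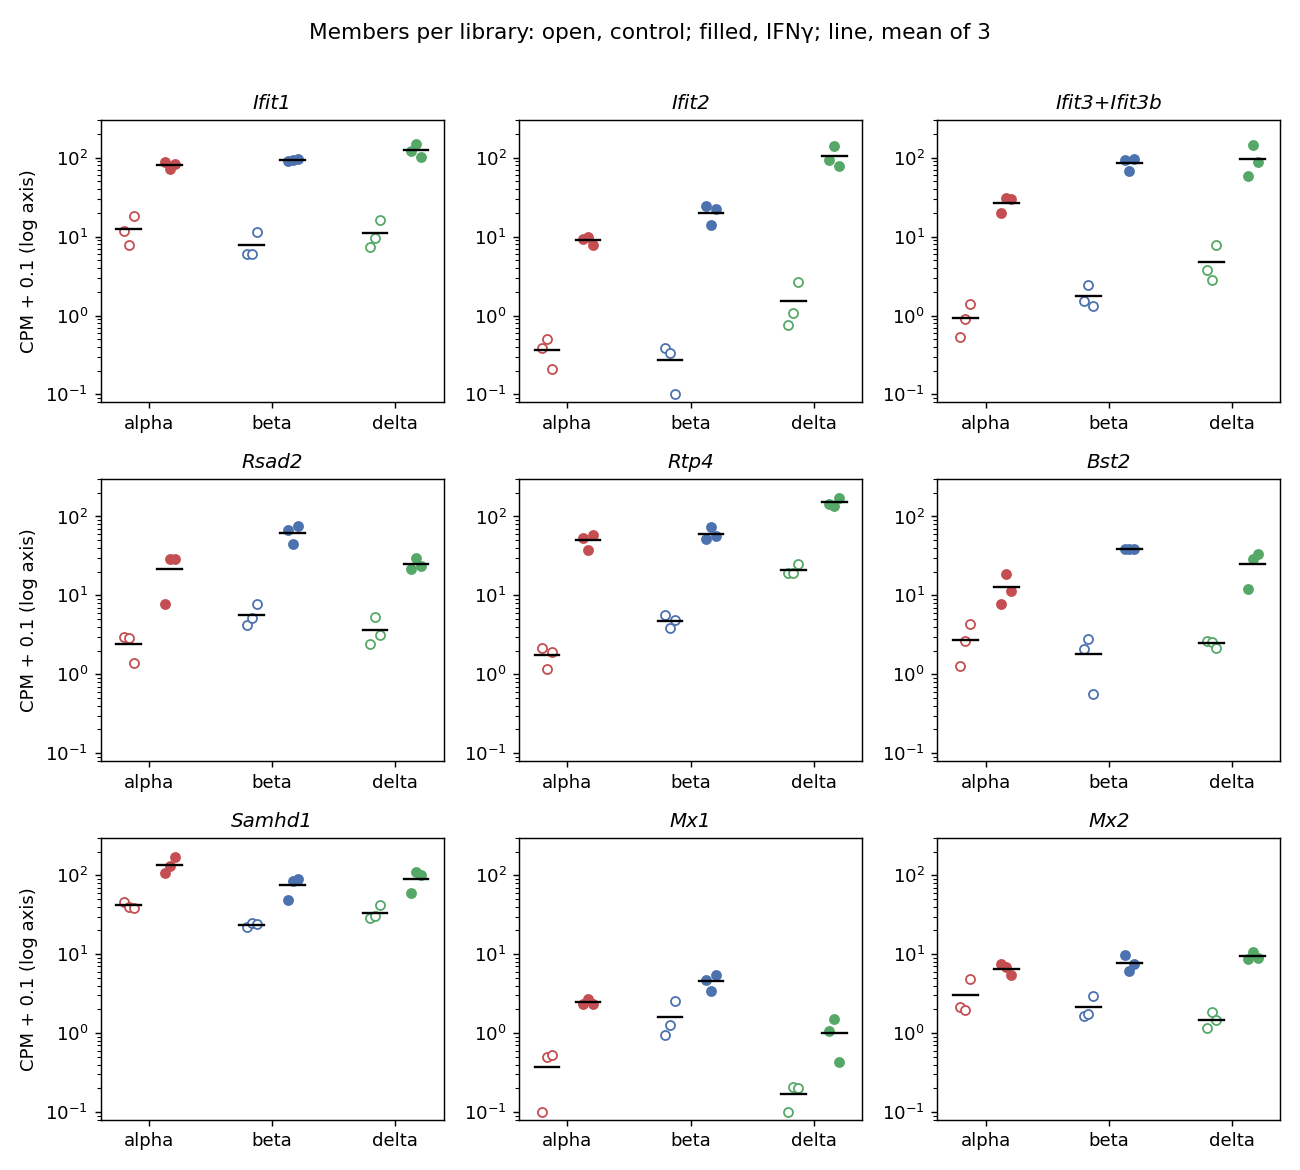
Level of each unit in every library as CPM + 0.1 on a log axis, by cell type, with open points for control libraries, filled points for IFNγ libraries and a line at the mean of 3. Filled points lie above the open points of the same cell type in every panel, and *Ifit2* and *Rtp4* are highest in the delta IFNγ libraries.

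*Ifit1* codes for the IFIT protein that binds uncapped or incompletely capped RNA. Its level was 11.62, 7.63 and 18.28 CPM in the alpha control libraries and 87.7, 72.3 and 83.26 CPM in alpha IFNγ. The beta libraries went from 5.98, 5.85 and 11.41 CPM to 90.96, 93.52 and 96.75 CPM, and the delta libraries from 7.35, 9.62 and 16.09 CPM to 119.7, 150.2 and 103.0 CPM. The control libraries of the 3 cell types overlapped one another, and the IFNγ libraries did not, with alpha cells lowest and delta cells highest. The log2 fold change was 2.69 (SE 0.32, adjusted p = 2.95e-05) in alpha cells, 3.60 (SE 0.34, adjusted p = 9.13e-07) in beta cells and 3.495 (SE 0.33, adjusted p = 9.88e-07) in delta cells. No difference between cell types in the level of *Ifit1*, with or without IFNγ, passed the threshold.

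*Ifit2*, which encodes an IFIT protein that binds AU-rich RNA, was close to absent from control alpha and beta cells, with 6 counts in the 3 alpha control libraries together and 4 in the 3 beta control libraries. It reached 9.14, 9.73 and 7.74 CPM in alpha IFNγ, 24.16, 13.87 and 22.03 CPM in beta IFNγ and 94.5, 140.2 and 78.92 CPM in delta IFNγ. The delta control libraries, at 0.668, 0.973 and 2.595 CPM, already lay above every alpha and beta control library. Under IFNγ the 3 cell types did not overlap, and delta cells were highest and alpha cells lowest. The log2 fold change was 5.05 (SE 0.54, adjusted p = 8.31e-06) in alpha cells, 6.68 (SE 0.56, adjusted p = 1.89e-07) in beta cells and 6.20 (SE 0.42, adjusted p = 1.12e-08) in delta cells, the fold in alpha and beta cells being set against those few control counts. Between cell types, IFNγ-treated delta cells exceeded treated alpha cells by 3.56 (SE 0.36, adjusted p = 7.61e-07) and treated beta cells by 2.39 (SE 0.34, adjusted p = 3.18e-05), and the difference of treated alpha from treated beta cells was -1.17 (SE 0.34, adjusted p = 0.0156) on the log2 scale. The last call was lost without alpha IFNγ 3 (adjusted p = 0.0589) or beta IFNγ 1 (adjusted p = 0.0696).

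*Ifit3* and *Ifit3b* encode further proteins of the IFIT family. Their sum was 0.436, 0.803 and 1.282 CPM in alpha control and 19.58, 30.68 and 29.78 CPM in alpha IFNγ. In beta cells it went from 1.42, 2.34 and 1.22 CPM to 94.33, 68.51 and 96.28 CPM, and in delta cells from 3.63, 2.70 and 7.68 CPM to 58.45, 146.1 and 87.36 CPM. Delta control libraries were all above the alpha and beta control libraries, while the delta and beta IFNγ libraries overlapped and lay above those of alpha cells. The rise was 4.91 (SE 0.47, adjusted p = 1.89e-06) in alpha cells, 5.66 (SE 0.45, adjusted p = 9.31e-08) in beta cells and 4.38 (SE 0.40, adjusted p = 6.94e-07) in delta cells, as log2 fold changes. Kept apart as deposited, each copy rose in each cell type by itself, *Ifit3* by 5.09, 6.25 and 4.78 and *Ifit3b* by 4.34, 4.58 and 3.73 on the log2 scale in alpha, beta and delta cells, with adjusted p of 0.00238 or less. In the IFNγ libraries 13.81% to 38.05% of the summed expected count had been given to *Ifit3b*, whereas the control libraries, with 3 to 74 counts each, ranged from 0% to 77.3%.

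*Rsad2*, the viperin gene, showed 2.91, 2.81 and 1.28 CPM in alpha control and 7.76, 28.48 and 28.62 CPM in alpha IFNγ, where replicate 1 lay far below the other replicates. Beta cells went from 4.13, 5.03 and 7.61 CPM to 67.51, 44.09 and 75.65 CPM, and delta cells from 2.29, 5.19 and 3.01 CPM to 21.57, 29.94 and 23.6 CPM. Here the beta IFNγ libraries were the highest, with no overlap with alpha or delta cells, which overlapped each other. The log2 fold change was 3.23 (SE 0.47, adjusted p = 0.000359) in alpha cells, 3.48 (SE 0.44, adjusted p = 5.49e-05) in beta cells and 2.84 (SE 0.44, adjusted p = 0.00064) in delta cells. Treated alpha cells lay below treated beta cells (-1.53, SE 0.40, adjusted p = 0.00801), and so did treated delta cells (-1.32, SE 0.40, adjusted p = 0.0146), but the latter value was 0.38 (adjusted p = 0.742) with the date in the file names as a term, and its adjusted p was 0.0518 without beta IFNγ 3 and 0.0585 without delta IFNγ 1. *Cmpk2*, the gene beside *Rsad2*, which encodes a mitochondrial nucleotide kinase, rose by 1.79 in beta and in delta cells (SE 0.28 each) and gave 1.00 (SE 0.28, adjusted p = 0.112) in alpha cells.

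*Rtp4* set delta cells apart before any treatment. Delta control libraries held 18.99, 19.25 and 25.02 CPM, against 5.56, 3.75 and 4.72 CPM in beta control and 2.03, 1.07 and 1.82 CPM in alpha control, with no overlap among the 3 cell types. The log2 difference was 3.67 (SE 0.28, adjusted p = 3.74e-08) for delta against alpha control cells, 2.18 (SE 0.25, adjusted p = 2.61e-06) for delta against beta and -1.49 (SE 0.29, adjusted p = 0.00118) for alpha against beta. With IFNγ the level rose to 52.6, 37.1 and 58.99 CPM in alpha cells, 50.99, 73.84 and 57.23 CPM in beta cells and 145.4, 137.1 and 170.9 CPM in delta cells, so that alpha and beta cells now overlapped and delta cells stayed above both. The fold changes ran in the reverse order of the control levels, with log2 values of 4.90 (SE 0.28, adjusted p = 2.24e-09) in alpha cells, 3.70 (SE 0.25, adjusted p = 1.24e-08) in beta cells and 2.84 (SE 0.23, adjusted p = 1.12e-07) in delta cells. That order is a description only, as fold change and control level share the control libraries. No difference between these responses passed the threshold in the reported test. The span of *Rtp4* overlaps a pair of other annotated genes. *Gm45338*, which shares exon sequence on the same strand, held 3.34, 0.541 and 1.04 CPM in delta control, 0.278, 0.892 and 0.738 CPM in delta IFNγ and 0.201 CPM or less in alpha and beta libraries, and *Masp1*, on the other strand, held 3.44 to 9.81 CPM in delta libraries and 0.436 CPM or less in the others. Both had their highest levels in delta libraries, as *Rtp4* did, and their part in its level was not tested.

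**Figure D2:**
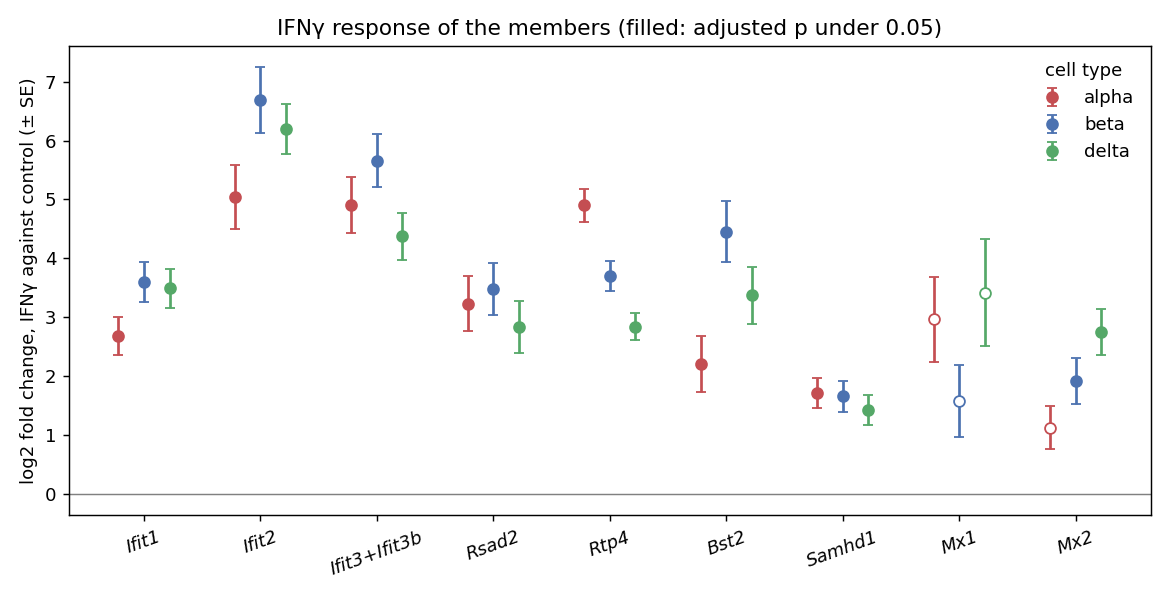
Log2 fold change of each unit, IFNγ against control, in alpha, beta and delta cells, with the SE as a bar and filled points where the adjusted p was under 0.05. The values run from 1.13 for *Mx2* in alpha cells to 6.68 for *Ifit2* in beta cells, and the order of the cell types differs from gene to gene.

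*Bst2*, the tetherin gene, had 1.16, 2.54 and 4.28 CPM in alpha control and 7.76, 18.75 and 11.31 CPM in alpha IFNγ. In beta cells it went from 1.99, 2.69 and 0.456 CPM to 38.91, 38.64 and 38.93 CPM, the closest agreement of any unit in any group (coefficient of variation 0.415%), and in delta cells from 2.58, 2.49 and 2.08 CPM to 11.97, 29.05 and 33.03 CPM. Beta IFNγ libraries lay above all alpha and delta IFNγ libraries, although the control libraries of the 3 cell types overlapped. The log2 fold change was 4.45 (SE 0.52, adjusted p = 1.70e-05) in beta cells, 3.37 (SE 0.48, adjusted p = 0.000249) in delta cells and 2.20 (SE 0.48, adjusted p = 0.0236) in alpha cells. The alpha call did not hold with limma-voom (adjusted p = 0.0854), in a fit of the alpha libraries alone (adjusted p = 0.116), or without alpha control 1 (adjusted p = 0.131) or alpha control 2 (adjusted p = 0.129). Treated alpha cells were below treated beta cells by the test (-1.62, SE 0.43, adjusted p = 0.00902), and without alpha IFNγ 1 this value was -1.37 (adjusted p = 0.0538).

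*Samhd1*, the gene of the nucleotide-cleaving enzyme, was the member with the highest CPM before treatment and had one of the smallest folds. Alpha control libraries held 46.2, 39.88 and 38.9 CPM, beta control 22.08, 25.05 and 23.73 CPM and delta control 28.82, 30.28 and 41.73 CPM. With IFNγ these became 107.4, 132.7 and 168.6 CPM in alpha cells, 49.03, 84.99 and 89.4 CPM in beta cells and 59.99, 110.0 and 100.7 CPM in delta cells. The fold changes lay close together, with log2 values of 1.71 (SE 0.26, adjusted p = 0.000545), 1.66 (SE 0.26, adjusted p = 0.000696) and 1.43 (SE 0.25, adjusted p = 0.00293) in alpha, beta and delta cells. The differences of these responses were 0.05 (SE 0.36) for alpha minus beta, -0.23 (SE 0.36) for delta minus beta and -0.28 (SE 0.35) for delta minus alpha. Alpha cells exceeded beta cells without IFNγ (0.82, SE 0.26, adjusted p = 0.0307) and with it (0.87, SE 0.25, adjusted p = 0.0151), but the control difference had an adjusted p of 0.0558 with limma-voom and between 0.0538 and 0.105 when any one of the 6 libraries compared was left out, and the treated one had 0.0808 without alpha IFNγ 3 and 0.0881 without beta IFNγ 1.

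*Mx1*, which encodes one of the dynamin-like GTPases, had 0, 0.401 and 0.428 CPM in alpha control and 2.24, 2.61 and 2.22 CPM in alpha IFNγ, while beta cells went from 0.855, 1.171 and 2.434 CPM to 4.62, 3.32 and 5.36 CPM. In delta cells it had 2 counts in the 3 control libraries together and 22 in the 3 IFNγ libraries, a ratio of 11.27 with an exact 95% counting interval of 2.77 to 98.9. Every IFNγ library exceeded every control library of its cell type, yet none of these changes passed the threshold in the reported test, with log2 values of 2.97 (SE 0.72, adjusted p = 0.0611) in alpha cells, 1.58 (SE 0.61, adjusted p = 0.783) in beta cells and 3.42 (SE 0.91, adjusted p = 0.0825) in delta cells. Without the filter on low counts *Mx1* passed in alpha cells (3.00, adjusted p = 0.00602) and in delta cells (3.42, adjusted p = 0.0281). Without alpha IFNγ 2 the alpha value was 2.89 with an adjusted p of 0.0182, and without delta IFNγ 3 the adjusted p was 0.0382 in alpha cells and 0.0303 in delta cells, as it was 0.0499 in delta cells without alpha control 1. Beta cells had the highest *Mx1* without IFNγ, with log2 differences of -4.17 (SE 0.88, adjusted p = 0.00186) for delta against beta and -2.30 (SE 0.74, adjusted p = 0.0359) for alpha against beta. With IFNγ the difference of delta from beta cells was -2.33 (SE 0.63, adjusted p = 0.00825). With the date in the file names as a term, adjusted p values of these were 0.11, 0.12 and 0.375. The control difference of alpha from beta cells rests on 7 counts in alpha control, and its adjusted p was between 0.0536 and 0.174 in 5 fits that left out 1 alpha or beta control library each.

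*Mx2* had 2.03, 1.87 and 4.81 CPM in alpha control and 7.33, 6.72 and 5.32 CPM in alpha IFNγ. Beta cells went from 1.57, 1.64 and 2.89 CPM to 9.59, 6.05 and 7.34 CPM and delta cells from 1.05, 1.73 and 1.35 CPM to 8.63, 10.58 and 8.85 CPM. It rose in beta cells (1.91, SE 0.39, adjusted p = 0.012) and in delta cells (2.76, SE 0.39, adjusted p = 0.000242), and the alpha value was 1.13 (SE 0.37, adjusted p = 0.151). The beta call was lost without beta IFNγ 1 (adjusted p = 0.077), beta control 1 (0.0978) or beta control 2 (0.115), and was at 0.0511 with the date term. Without alpha control 3, whose level of 4.81 CPM came near the alpha IFNγ libraries, the alpha value was 1.72 with an adjusted p of 0.0396. No cell type differed from another in its *Mx2* level past the threshold, with or without IFNγ.

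Alpha IFNγ 2 changed few of the alpha results. Without it the log2 fold changes in alpha cells were 2.77 for *Ifit1*, 4.98 for *Ifit2*, 4.8 for the sum of *Ifit3* and *Ifit3b*, 2.98 for *Rsad2*, 5.08 for *Rtp4*, 1.80 for *Bst2* and 1.73 for *Samhd1*, all still past the threshold, and 1.10 for *Mx2* (adjusted p = 0.0623). The file names carry 9 dates, which are no stated batch, and 2 dates held control and IFNγ libraries of alpha cells and 2 those of beta cells. Within them, IFNγ was higher for all 9 units on each date, in 18 of 18 values in alpha cells and 18 of 18 in beta cells. As no control library overlapped an IFNγ library of its cell type in CPM, these counts follow from that and are no separate support. No date held both kinds of delta library, so in delta cells the date and the treatment cannot be told apart within dates. With the date as a term, which takes its estimate from the other cell types, the delta calls fell from 8 to 5, with *Bst2* (3.44, adjusted p = 0.098), *Samhd1* (1.14, adjusted p = 0.5) and *Mx2* (2.20, adjusted p = 0.447) no longer past the threshold. The values still called in delta cells were 2.70 for *Ifit1*, 4.84 for *Ifit2*, 3.51 for the *Ifit3* pair, 4.64 for *Rsad2* and 2.52 for *Rtp4*, so that all but the last moved by over 1.5 times in fold.

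Levels can be compared between genes only per length, as TPM. In control cells *Samhd1* ranked first in alpha cells (12.28 ± 1.67 TPM, SD, n = 3) and in beta cells (5.48 ± 1.06 TPM), apart from the next gene in both, and *Rtp4* ranked first in delta cells (9.93 ± 1.01 TPM), where it overlapped *Samhd1* (9.06 ± 2.09 TPM). In alpha control every unit from *Ifit1* (3.11 ± 1.71 TPM) down to *Ifit2* (0.04 ± 0.02 TPM) overlapped the next in rank. In beta control *Rtp4* (2.20 ± 0.20 TPM), *Bst2* (1.63 ± 1.09 TPM) and *Ifit1* (1.56 ± 0.61 TPM) overlapped in turn, and *Ifit2* (0.0267 ± 0.0231 TPM) came last, below *Mx1* (0.403 ± 0.047 TPM) and without overlap. *Ifit1* (2.20 ± 0.88 TPM) and *Bst2* (2.06 ± 0.36 TPM) followed *Samhd1* in delta control, and *Mx1* (0.0333 ± 0.0416 TPM) was last.

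With IFNγ the order of the mean TPM differed between the cell types, though many neighbouring ranks overlapped and no test compared the orders. In alpha IFNγ the order was *Samhd1* (41.61 ± 10.11 TPM), *Rtp4* (22.43 ± 1.02 TPM) and *Ifit1* (16.51 ± 2.64 TPM), with no overlap between these neighbours. *Bst2* (36.05 ± 3.14 TPM), *Rtp4* (33.74 ± 4.88 TPM), the *Ifit3* pair (29.75 ± 6.38 TPM), *Ifit1* (21.21 ± 1.57 TPM) and *Samhd1* (19.33 ± 4.91 TPM) led in beta IFNγ, each overlapping the next, and *Rsad2* (9.79 ± 2.94 TPM) stood clear below them. In delta IFNγ *Rtp4* (64.24 ± 8.46 TPM) stood clear of the rest and made up 35.7% of the summed TPM of the 10 genes, and *Ifit2* (13.55 ± 7.28 TPM) ranked sixth of 9, where it ranked eighth in alpha and in beta cells. *Mx1* was last in all 3 treated groups, at 1.19 ± 0.38, 1.98 ± 0.70 and 0.17 ± 0.12 TPM. TPM uses a gene length estimated in each library, which for *Mx1* ran from 641.7 to 2728.5 bases. On this scale 1 delta IFNγ library (0.05 TPM) fell below a delta control library (0.08 TPM) for *Mx1*, and alpha control and IFNγ met at 1.55 TPM for *Mx2*.

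**Figure D3:**
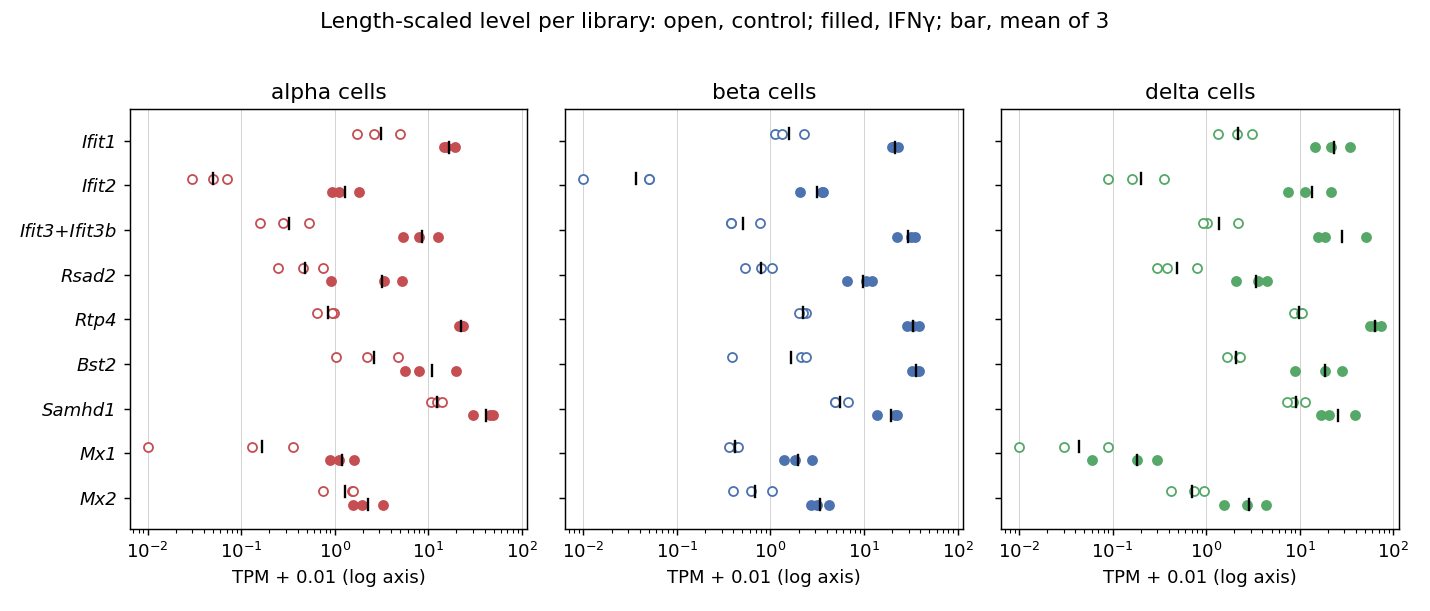
Length-scaled level of each unit in every library as TPM + 0.01 on a log axis, in alpha, beta and delta cells, with open points for control, filled points for IFNγ and a bar at the mean of 3 libraries. *Samhd1* leads the control alpha and beta cells, *Rtp4* leads the delta cells, and *Mx1* is lowest under IFNγ in each cell type.

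Whether the size of the response differed between cell types was tested as a difference of log2 fold changes. No unit passed the threshold for any of the 3 pairs of cell types, and neither did any of the 17337 genes (0 called for each pair, or 0%, with edgeR), although 2304, 821 and 783 genes had an unadjusted p under 0.05 for alpha minus beta, delta minus beta and delta minus alpha. The largest member differences were those of *Bst2* for alpha minus beta (-2.25, SE 0.69, unadjusted p = 0.00423, adjusted p = 0.369) and of *Rtp4* for delta minus alpha (-2.06, SE 0.35, unadjusted p = 1.17e-05, adjusted p = 0.202). *Rtp4* also gave 1.201 (SE 0.36, adjusted p = 0.369) for alpha minus beta and -0.86 (SE 0.32, adjusted p = 0.885) for delta minus beta. *Mx2* gave 1.63 (SE 0.53, adjusted p = 0.876) for delta minus alpha, and the *Ifit3* pair gave -1.28 (SE 0.57, adjusted p = 0.885) for delta minus beta. Both leading differences depended on the fit. DESeq2 called *Rtp4* for delta minus alpha (-2.04, adjusted p = 0.00232), and without alpha IFNγ 2 the edgeR test called it too (-2.24, adjusted p = 0.0223), along with *Rtp4* (1.37, adjusted p = 0.0343) and *Bst2* (-2.65, adjusted p = 0.0356) for alpha minus beta. In that fit the calls over all genes rose too, from 0 to 674 higher and 702 lower for alpha minus beta, and to 1 higher and 2 lower for delta minus alpha. Standard errors of these differences ran from 0.32 to 1.08, and a p that misses the threshold does not show that the responses were equal.

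**Figure D4:**
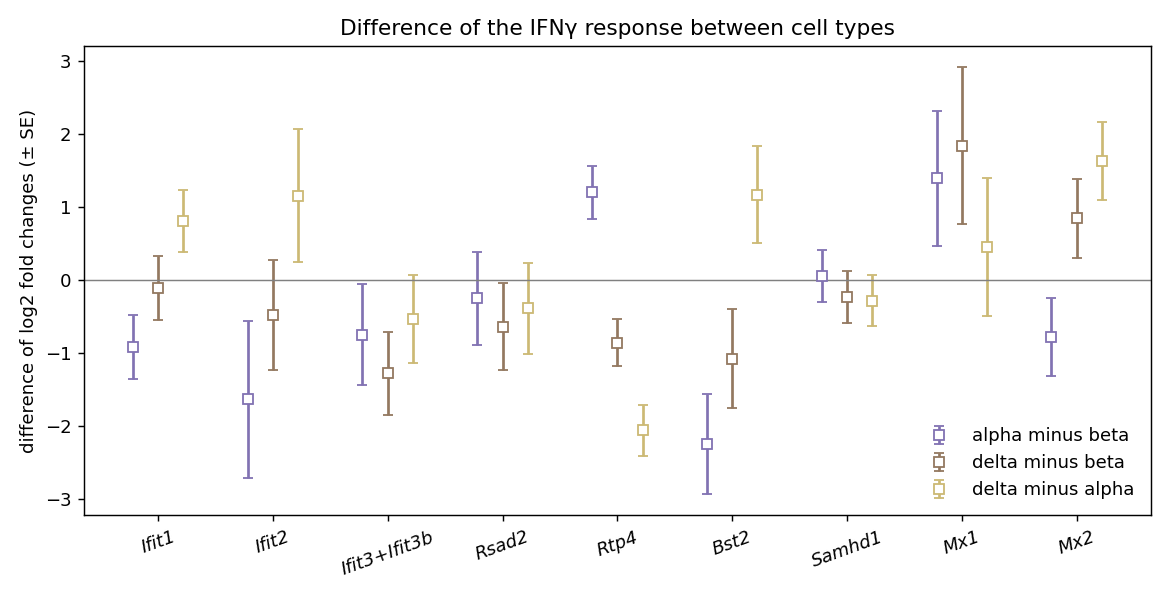
Difference of the log2 fold changes between cell types for each unit (alpha minus beta, delta minus beta, delta minus alpha), with the SE as a bar. None passed an adjusted p of 0.05, and *Bst2* (-2.25, alpha minus beta) and *Rtp4* (-2.06, delta minus alpha) lie farthest from 0.

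Levels were also compared between the cell types. In control cells 3 units differed between alpha and beta cells, 4 between delta and beta cells and 3 between delta and alpha cells, where 19.7%, 20.5% and 19.7% of all genes tested were called. In IFNγ-treated cells the counts were 5 for alpha against beta, 4 for delta against beta and 3 for delta against alpha, beside 27.1%, 36.4% and 16% of all genes. Shares of 3 to 5 units in 9 lie near or somewhat above these backgrounds, and nothing particular to the members is read from them. Some units were called in the same direction with and without IFNγ. Among them, *Rtp4*, *Ifit2* and the *Ifit3* pair were higher in delta than in alpha cells, and *Mx1* was lower in delta than in beta cells. Other calls were not shared. For alpha against beta, *Bst2* gave 0.62 in control cells, not past the threshold, and -1.62 with IFNγ. *Ifit2* gave 0.47, not past the threshold, and -1.17. The *Ifit3* pair was called for delta against beta only in control cells. For *Ifit2* the control values were 2.87 (SE 0.71, adjusted p = 0.00646) for delta against beta and 2.40 (SE 0.65, adjusted p = 0.0136) for delta against alpha, and for the *Ifit3* pair 1.46 (SE 0.45, adjusted p = 0.0284) and 2.40 (SE 0.50, adjusted p = 0.00191). With the date term they were larger, at 3.52 and 3.61 for *Ifit2* and 2.04 and 3.31 for the *Ifit3* pair. With limma-voom both *Ifit2* values missed the threshold (adjusted p of 0.0764 and 0.113). Without delta control 3, the delta control library highest in both units, *Ifit2* against alpha was 1.62 (adjusted p = 0.112, and 0.085 without alpha control 3) and the *Ifit3* pair against beta 0.90 (adjusted p = 0.19), and the latter also missed the threshold without beta control 1 (0.0972) or beta control 3 (0.0974), with limma-voom (0.192) and in a fit of the compared groups alone (0.0643). Delta control 3 also had the lowest *Sst* of the delta control libraries, at 14710 CPM against 35920 and 34770 CPM. Its *Gcg* was the highest of them, at 2262 CPM against 77.58 and 246.1 CPM, as was its acinar marker sum, at 2452 CPM against 1255 and 1557 CPM. The part of this in the differences was not tested.

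Treated delta cells exceeded treated alpha cells by 1.87 (SE 0.35, adjusted p = 0.000784) for the *Ifit3* pair and by 1.61 (SE 0.22, adjusted p = 2.66e-05) for *Rtp4*, and treated beta cells by 1.32 (SE 0.22, adjusted p = 0.000152) for *Rtp4*, the last with an adjusted p of 0.166 under the date term. For the *Ifit3* pair the difference of treated alpha from treated beta cells was -1.69 (SE 0.35, adjusted p = 0.00145), and treated delta cells gave 0.17 (SE 0.34) against beta cells, not past the threshold. Where 2 cell types shared a date, each member called had the same direction within it, in 6 of 6 values for control alpha against beta, 10 of 10 for treated alpha against beta, 4 of 4 for control delta against beta, 3 of 3 for control delta against alpha and 3 of 3 for treated delta against alpha. The members were picked by tests that included these same libraries, so this agreement is no separate support, and it was not counted over all genes. Each of these delta comparisons rests on 1 shared date. No date was shared by treated delta and treated beta cells. Acinar markers were higher in the delta libraries, at 486.9 to 2452 CPM, than in all others but beta control 1 (1817 CPM). Duct markers were higher in the alpha libraries, at 636.7 to 1311 CPM. The part of either in the differences between cell types was not tested.

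The signalling genes upstream of these effectors were taken as a list of 16 receptors, kinases, transcription factors and feedback regulators, all of which passed the filter on low counts. Of them 6 rose in alpha cells, 9 in beta cells and 10 in delta cells and none fell, with medians of 1.04, 1.16 and 1.45 on the log2 scale. *Stat2* and *Irf9*, parts of the complex that reads the ISRE, rose in alpha, beta and delta cells by 1.88, 2.37 and 2.88 and by 1.26, 1.57 and 1.80. *Irf1* rose by 1.88, 2.32 and 2.27, and *Irf7*, which amplifies type I interferon responses, by 1.81, 3.44 and 2.97. *Irf8*, a factor of the IRF family, rose from few control counts by 5.53, 5.17 and 5.21 (SE 1.02, 0.86 and 0.82), to 2.605, 5.45 and 5.55 CPM on average. *Socs1*, a feedback inhibitor of the kinases, rose by 3.82 in beta cells and 4.57 in delta cells (SE 0.60 and 0.62) and gave 1.79 (SE 0.53, adjusted p = 0.128) in alpha cells. The receptor genes *Ifngr1*, *Ifngr2*, *Ifnar1* and *Ifnar2* and the kinases *Jak1* and *Tyk2* passed the threshold in no cell type, and *Ifngr1* held 7.98, 12.3 and 13.42 CPM in alpha, beta and delta control cells.

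Interferon genes themselves were almost unseen. Of 21 type I, II and III interferon genes listed, 17 had no count in any library, among them *Ifnb1* and *Ifng*, and all 21 together had 61 counts over 18 libraries. *Ifnk* accounted for 52 of these, and of those 12 fell in control and 12 in treated alpha cells, 5 and 6 in beta cells and 14 and 3 in delta cells. These counts limit the RNA in the sorted cells at the end of the 20 h and say nothing of interferon made earlier or by cells that were sorted away.

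Other antiviral genes moved alongside the 10. Of 54 listed, 43 passed the filter, and of these 19 rose in alpha cells, 29 in beta cells and 31 in delta cells and none fell, with medians of 1.44, 2.08 and 2.38 on the log2 scale, beside 2.97, 3.60 and 3.37 for the 9 units. *Usp18* stands in both lists. The largest rises were those of *Gbp2*, a guanylate-binding GTPase, by 7.37 (SE 0.45), 7.46 (SE 0.44) and 6.97 (SE 0.43) in alpha, beta and delta cells, of *Gbp3* by 6.74, 6.60 and 7.54, of *Zbp1*, a sensor of Z-form nucleic acids, by 6.26, 7.23 and 6.69, and of *Ifi44* by 6.16, 6.94 and 7.18. *Oas3*, one of the 2′-5′-oligoadenylate synthetases, had no count in beta control and 177 in beta IFNγ, at least 53.33-fold higher against a floor of 3 counts over the group. *Isg15*, one of the best known interferon-stimulated genes, rose in beta cells (4.67, SE 0.83) and delta cells (5.78, SE 0.86) but stayed at 3.80 and 4.49 CPM on average, and gave 1.23 (SE 0.68, adjusted p = 0.285) in alpha cells. *Isg15*, *Ifnk*, *Ifna2*, *Ifnab* and *Ifnz* were named after their values were seen.

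**Figure D5:**
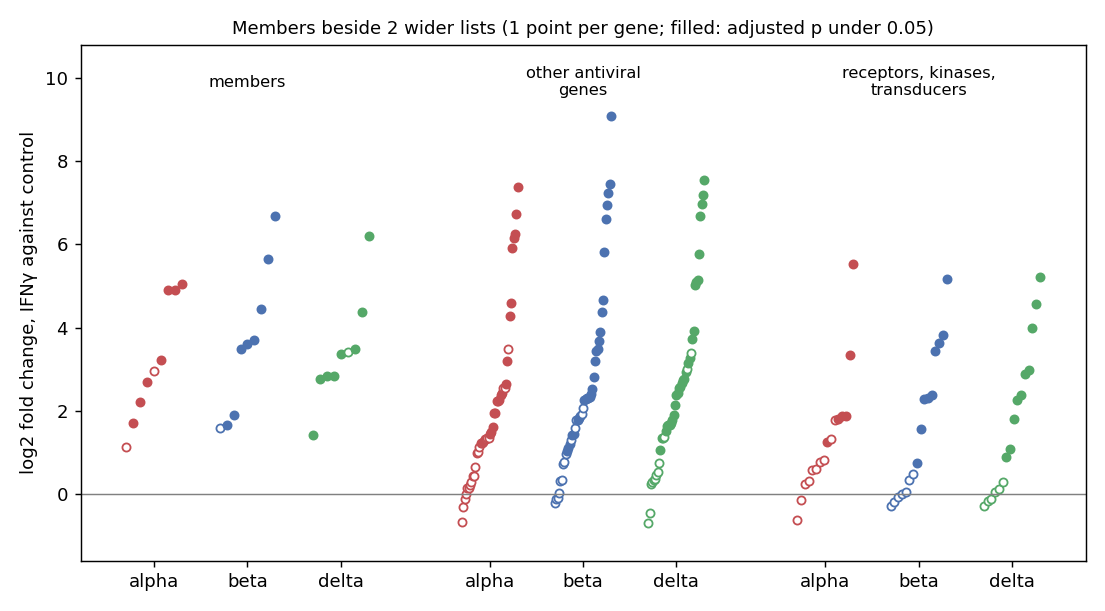
Log2 fold change, IFNγ against control, of the 9 units, of 43 other antiviral genes and of 16 receptors, kinases and transducers in each cell type, 1 point per gene in rising order, filled where the adjusted p was under 0.05. The units span 1.13 to 6.68, within the range of the other antiviral genes, and no gene of the 3 sets was called lower. The highest point, *Oas3* in beta cells, is a fitted value against libraries at 0 and depends on the prior count.

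Relatives and neighbours of the members behaved unevenly. *Ifit1bl2*, which shares the start region of *Ifit1* on the opposite strand, rose in alpha cells (4.31, SE 0.83, adjusted p = 0.00818), from 0.116 to 2.73 CPM on average. It gave 2.72 (SE 0.88, adjusted p = 0.376) in beta cells and 0.61 (SE 0.69, adjusted p = 0.777) in delta cells, with averages of 0.98 and 0.939 CPM under IFNγ. *Ifit1bl1* passed the threshold in no cell type and reached at most 1.89 CPM on average. *Ifit1* and *Ifit1bl2* share 5.19% of the 75-base windows of *Ifit1*, so a small part of these reads could have been split between them. *Rtp1*, *Rtp2*, *Rtp3* and *Bst1*, relatives or namesakes of *Rtp4* and *Bst2*, did not pass the filter on low counts.

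Over the 18 libraries the genes most alike to each unit were named by Pearson's r of log2 CPM among 15734 genes, as a description only, since the libraries share cell type and treatment. *Ifit1* was most like *Gbp4* (r = 0.983), *Zbp1* (0.980) and *Gbp10* (0.978), and *Ifit2* most like *H2-Ab1* (0.969), *Herc6* (0.968) and *Gbp8* (0.966). The *Ifit3* pair was nearest to *Gbp8* (0.977), *Trim21* (0.968) and *Irgm1* (0.964), *Rsad2* to *Apof* (0.949), *Gbp2* (0.944) and *H2-T22* (0.936), and *Rtp4* to *Tnfsf10* (0.985), *Gm20559* (0.957) and *Ddx60* (0.952). *Bst2* stood closest to *H2-T23* (0.970), *H2-D1* (0.955) and *Ube2l6* (0.955), *Samhd1* to *Gm5970* (0.919), *Ly75* (0.918) and *Ifi47* (0.917), and *Mx2* to *Ifit1* (0.941), *Ifi27* (0.941) and *H2-Q4* (0.939). *Mx1* had the weakest likenesses, with *Usp31* (0.890), *Ccser1* (0.846) and *Hpse* (0.842). Ranked by Spearman's rho instead, the 3 genes nearest to a unit shared 2 names with these for *Samhd1*, 1 name for 6 units and 0 for *Bst2* and *Mx2*.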

How the data were processed

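RNA of sorted alpha, beta and delta cells had been sequenced in 18 libraries as paired ends after depletion of ribosomal RNA. Per the study and the submitters' processing notes, the authors aligned reads to GRCm38 with STAR 2.5.2b and estimated expected counts and TPM (transcripts scaled for length and library) per gene with RSEM (version not given in the sources used here), and tested with DESeq2 1.32.0 including a batch term. The deposited expected counts hold 55487 genes per library, with no replicates pooled, and totals of 6128845 to 11531734. The deposited TPM divide by a length estimated in each library.

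Expected counts were rounded, *Ifit3* and *Ifit3b* were summed, and genes were kept by filterByExpr (minimum count 10), leaving 17337. The edgeR 4.0.16 quasi-likelihood test (R 4.3.3) was run with TMM scaling and a mean per group over all 18 libraries, and p-values were adjusted over all genes by Benjamini-Hochberg, with a threshold of 0.05. An SE is the fold change divided by the square root of F. The steps were tested on simulated data. The members and gene lists were chosen with earlier results of these data known. The named genes were all members, the 3 genes most alike to each by r (prior count 2), listed neighbours, and of each list up to 4 with the largest change. Alternatives were RLE scaling, DESeq2 1.42.0, limma-voom (limma 3.58.1), no low-count filter, separate *Ifit3* rows, a replicate block, the date in the file names, only the compared groups, and each library left out. Comparison within dates was added after seeing the data. Deviations of same-numbered libraries from their group means correlated at over 0.1 for every number only between beta control and beta IFNγ (0.223, 0.192 and 0.126) and between alpha IFNγ and delta IFNγ (0.167, 0.158 and 0.218). Between groups, the mean correlation was 0.177 for 18 pairs of libraries with the same file-name date and -0.0275 for 117 pairs with other dates. It was 0.0216 for 45 pairs with the same number. The reported test held no date term. The labels name no shared animal or day for a number. Intervals on counts cover counting error only.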

Additional observations from a re-analysis of the deposited data

Results flagged for a closer look

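The IFNγ response of *Bst2* differed by -2.25 on the log2 scale between alpha and beta cells, and that of *Rtp4* by -2.06 between delta and alpha cells. Neither passed the edgeR threshold as reported above, but each did so in another fit of the same difference. *Bst2* passed without the filter on low counts (-2.19, adjusted p = 0.00154). *Rtp4* passed without that filter (-2.08, adjusted p = 9.19e-05) and with DESeq2 (-2.04, adjusted p = 0.00232). Without the filter, 408 genes were called higher and 131 lower for alpha minus beta and 57 and 49 for delta minus alpha, where the reported test called 0. Over the alternatives other than leaving out a library, *Bst2* ran from -2.47 to -1.27 with adjusted p of 0.00154 to 0.861 and passed in 1 of 8, and *Rtp4* from -2.31 to -2.02 with adjusted p of 9.19e-05 to 0.852 and passed in 2 of 8. With 1 library left out, *Bst2* ran from -2.75 to -1.71 and *Rtp4* from -2.24 to -1.85, each past the threshold in 1 of 18 fits. *Bst2* in alpha cells rested on 7.76, 18.75 and 11.31 CPM under IFNγ, and *Rtp4* in alpha control cells on 2.03, 1.07 and 1.82 CPM.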

How the results depend on the processing

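Of the 55 member values followed, 1 changed sign: *Rsad2* in treated delta against beta cells was 0.38 (adjusted p = 0.742) with the date term, and the cause was not tested. Units called with the date term fell to 5 for IFNγ in delta cells and to 1 for treated delta against beta cells. Without the low-count filter 1 unit was called for the response of alpha minus beta and 1 for delta minus alpha, and DESeq2 also called 1 for the latter. For control delta against beta cells, limma-voom called 2 and a fit of those groups alone 1. In the fit of those groups alone, *Ifit2* and *Mx1* were not among the genes tested. Leaving out 1 library gave 0 to 2 units for alpha minus beta, 0 to 1 for delta minus alpha, 1 to 4 for control alpha against beta and 3 to 5 for treated alpha against beta, with the upper ends of the first and second without alpha IFNγ 2. The replicate block changed no member call, with 7 units in alpha cells, 8 in beta cells and 8 in delta cells.

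Over all genes, those called higher in alpha cells went from 162 to 989 without the filter and 1797 without alpha IFNγ 2, and in delta cells from 208 to 414 without the filter and 82 with the date term. Treated delta against beta cells gave 3196 higher and 3114 lower genes, and 660 and 464 with the date term. Few counts limit *Ifit2* in control alpha and beta cells and *Mx1* throughout. The log2 ratio of mean levels of *Mx2* in delta cells was 2.76 in CPM and 2.06 in TPM.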
